A study of Dugesia japonica with 16 samples.

Results

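The response of regenerating planarian tissue to PCTR3 was set against the response to RCTR3 at the same dose and time. The material was the freshwater flatworm *Dugesia japonica*, which regrows a lost head. Per the labels, worms were starved for 7 days at 20 °C and decapitated behind the eyes, and the posterior pieces were kept for 48 h in water with PCTR3 (10 nM), RCTR3 (10 nM), MCTR3 (10 nM) or vehicle (0.1% ethanol). The 16 poly(A)-enriched RNA libraries fell into 4 groups of 4, and the 8 libraries with PCTR3 or RCTR3 make up the comparison described here. All groups had been starved and decapitated, so there was no group of intact worms to compare with. The sources used here give neither the ethanol content of the conjugate groups nor the number of worms per library. The labels number the PCTR3 libraries and the RCTR3 libraries as 2 consecutive blocks, so the compound and the position in the numbering cannot be told apart. They do not say whether the replicates came from separate cultures, so the spread behind each p-value is that of these libraries and may be technical.

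PCTR3 and RCTR3 are conjugates in tissue regeneration, lipid mediators made from docosahexaenoic acid, a long-chain omega-3 fatty acid. Both carry a cysteine joined to the carbon chain through sulfur, the form left after glutathione is added to an epoxide precursor and then trimmed by peptidases. PCTR3 belongs to the protectin series and RCTR3 to the D-series resolvins. They differ in the place of the cysteinyl group along the chain, and RCTR3 carries an additional hydroxyl group. In mammals such conjugates are formed by macrophages and other leukocytes, and members of the family have been studied for faster head regrowth in planaria. Planarian regeneration draws on neoblasts, the dividing stem cells of the adult body, which supply the new tissue at the wound.

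The unit of measurement was TPM, an abundance corrected for transcript length and set relative to the library. Transcripts that the assembler kept together form a component, and a component's TPM is the sum over its transcripts. Of 16873 components, 15566 had at least 1 TPM in at least 4 of the 8 libraries and were tested. At the edge of that rule, 113 components reached 1 TPM in exactly 4 libraries, with a median mean level of 1.03 TPM, and 130 reached it in exactly 3, with a median of 0.913 TPM, and were left out. The 8 libraries summed to between 926.1 and 992.1 kTPM (kilo-TPM), and 15396 to 15559 components reached 1 TPM in each. By definition TPM sums to 1 fixed total, so the values were changed in some further way, by scaling or by leaving transcripts out, that is not stated. Read depth is unknown, since TPM does not keep it, and errors come from the spread between libraries. The file pairs identifiers with no gene names, so components are given by identifier, no pathway list could be applied, and the tissue label was not checked against marker genes.

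No component passed the threshold for a difference between PCTR3 and RCTR3. By limma on log2(TPM + 1), 0 of 15566 components passed the threshold of 0.05 on the Benjamini-Hochberg adjusted p (0% called), and the smallest adjusted p was 0.999. At an unadjusted p under 0.05 there were 403 components (2.59% of those tested), 205 higher and 198 lower with PCTR3. Without PCTR3 replicate 2 that number was 926 (5.95% of those tested), still with no component past the adjusted threshold. The 4 PCTR3 libraries lay entirely above the 4 RCTR3 libraries for 146 components (0.938%) and entirely below them for 142 (0.912%), together 1.85% of those tested. The median difference, PCTR3 minus RCTR3, was 0.0027 on the log2(TPM + 1) scale, and the median absolute difference was 0.0572. In such bulk samples fewer cells of a type and less RNA per cell cannot be told apart.

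**Figure D1:**
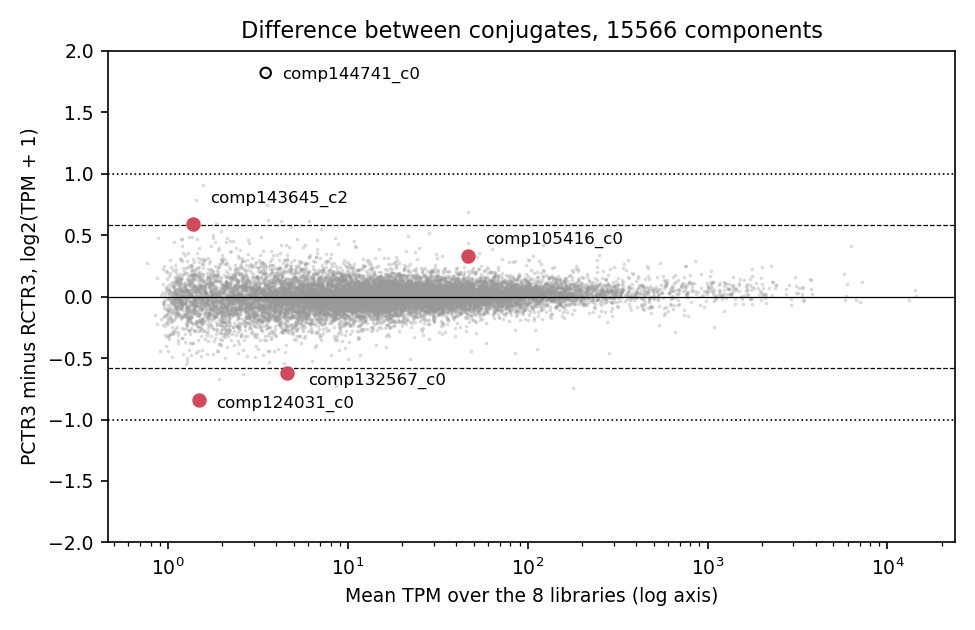
Difference PCTR3 minus RCTR3 on the log2(TPM + 1) scale (vertical axis) against the mean TPM over the 8 libraries (horizontal log axis); each grey point is a component, filled points are the components with the lowest p in each direction, the ring is the component with a difference beyond 2-fold on this scale, dashed lines mark 1.5-fold and dotted lines 2-fold. The points narrow around 0 as the level rises, and 1 of 15566 lies beyond the dotted lines.

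A p above the threshold does not show equal action, so the width of the intervals was examined. The 95% confidence interval of the difference lay inside 1.5-fold in either direction for 95.2% of the components and inside 2-fold for 99.7%, on the log2(TPM + 1) scale, which understates changes of rare components. For 42 components the interval reached past 2-fold, so a difference of that size lies within the error there. The interval extended from the estimate by a median of 0.207 to each side, a factor of 1.15. Among the 10028 components with a mean of 10 TPM or more, 98.4% of the intervals lay inside 1.5-fold and 99.9% inside 2-fold. In the least abundant quintile, whose median level was 2.49 TPM, 85.6% lay inside 1.5-fold, against 98.1% in the most abundant quintile, whose median level was 96.4 TPM. Precision also differed with the number of assembled transcripts. Intervals lay inside 1.5-fold for 93.4% of the 8428 components with 1 transcript, 97% of the 5513 with 2 to 5, and 99% of the 1625 with 6 or more, and inside 2-fold for all of the last class. The classes differ in level as well, with medians of 16 TPM, 15.8 TPM and 22.4 TPM.

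**Figure D2:**
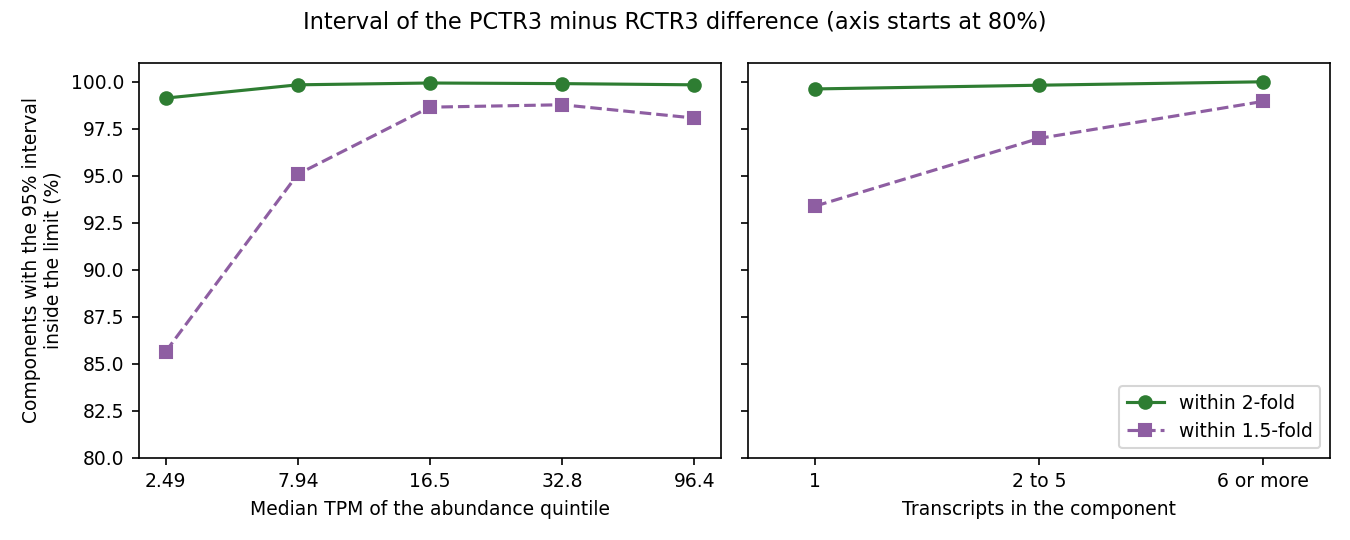
Percentage of components whose 95% interval of the PCTR3 minus RCTR3 difference lies inside 2-fold (circles) or 1.5-fold (squares), by abundance quintile (left, labelled with the quintile's median TPM) and by number of transcripts in the component (right); the vertical axis starts at 80%. The share inside 1.5-fold is lowest, at 85.6%, in the least abundant quintile, and the share inside 2-fold stays above 99% in every class shown.

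The components with the lowest p in each direction, among those with a mean of 1 TPM or more, were the following. They are not all those with the largest differences, but comp124031_c0 also had the largest fall of all tested components. Since these components were picked for a low p in these libraries, non-overlap between the groups is no separate evidence of a difference. comp105416_c0 had 56.1, 46.7, 51.2 and 53.3 TPM with PCTR3, against 39.8, 43.5, 40.8 and 40.2 TPM with RCTR3. The groups did not overlap, and the means were 51.9 ± 3.96 and 41.1 ± 1.69 TPM (SD, n = 4 each). The log2(TPM + 1) difference was 0.33 (SE 0.07; limma adjusted p = 0.999), a ratio of 1.25 with an interval of 1.13 to 1.39. The 4 vehicle libraries, at 37.7 to 53.6 TPM, spanned most of both ranges.

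comp143645_c2 had 2.12, 2.36, 1.52 and 1.47 TPM with PCTR3, against 0.658, 1.06, 0.875 and 0.962 TPM with RCTR3. All PCTR3 libraries were higher, with a difference of 0.59 (SE 0.14; limma adjusted p = 0.999). Only 1 RCTR3 library reached 1 TPM, so the component met the filter mainly through the PCTR3 libraries, where it was high. In vehicle its level lay between 0.953 and 2.17 TPM and overlapped both conjugate groups. Against vehicle it passed the threshold with RCTR3 (log2(TPM + 1) difference -0.46, limma adjusted p = 0.0371) and not with PCTR3 (difference 0.13, limma adjusted p = 0.569), while the direct test did not pass.

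Lower with PCTR3 was comp124031_c0, at 0.543, 0.846, 0.675 and 1.05 TPM with PCTR3, against 2.54, 2.59, 1.47 and 2.21 TPM with RCTR3. The groups did not overlap, and the difference was -0.84 (SE 0.15; limma adjusted p = 0.999). Only 1 PCTR3 library reached 1 TPM, so the component met the filter mainly through the RCTR3 libraries, where it was high. The vehicle libraries ran from 0.283 to 2.79 TPM, wider than both conjugate groups together.

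comp132567_c0 had 2.77, 4.23, 3.95 and 2.72 TPM with PCTR3, against 6.31, 5.53, 5.73 and 5.29 TPM with RCTR3. The difference was -0.62 (SE 0.13; limma adjusted p = 0.999). Here the RCTR3 libraries stood above all others: MCTR3 libraries lay between 2.47 and 3.19 TPM and vehicle libraries between 2.4 and 2.94 TPM. Against vehicle the component passed the threshold with RCTR3 (log2(TPM + 1) difference 0.88, limma adjusted p = 4.8e-05) and not with PCTR3 (difference 0.26, limma adjusted p = 0.0835). Since the direct test did not pass, the conjugates are not shown to differ at this component.

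**Figure D3:**
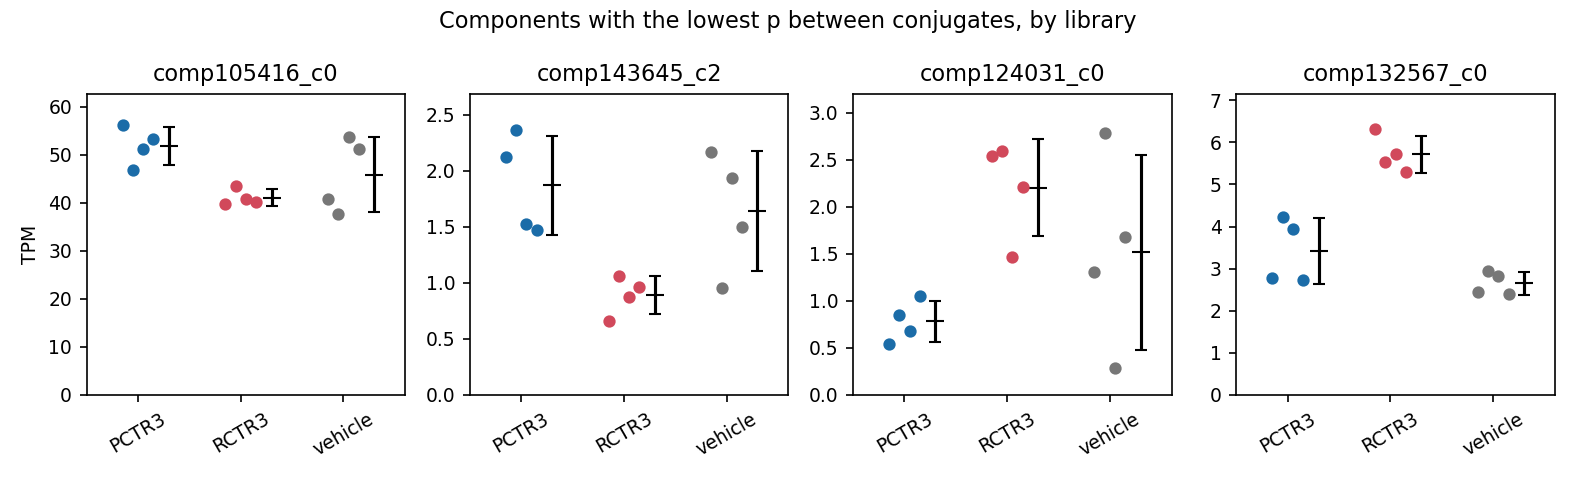
TPM (vertical axis, starting at 0) of the 4 components with the lowest p between the conjugates, by group; points are libraries and bars are the mean ± SD of 4. PCTR3 and RCTR3 points do not overlap in any panel, and vehicle points overlap both in the 3 panels other than comp132567_c0, where RCTR3 lies between 5.29 and 6.31 TPM. The choice by lowest p favours panels without overlap.

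On the log2(TPM + 1) scale, 1 component differed by more than 2-fold, comp144741_c0, singled out after its values were seen. It had 12.6, 0, 9.34 and 3.14 TPM with PCTR3, and 0, 2.75, 3.7e-07 and 0 TPM with RCTR3. The groups overlapped, since PCTR3 replicate 2 was listed at 0. MCTR3 libraries lay between 2.79 and 16.4 TPM and vehicle libraries between 5.39 and 21.6 TPM, so the values near 0 occurred in the PCTR3 and RCTR3 groups only. Its difference of 1.82 had an interval of 0.20 to 3.44 and did not pass (limma adjusted p = 0.999). Beyond 1.5-fold on the log2(TPM + 1) scale, which draws low levels together, there were 16 components, 10 higher and 6 lower with PCTR3, and 14 of them had a mean under 10 TPM. No component reached 1 TPM in all 4 libraries of one conjugate while being at 0 in all 4 of the other.

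Single transcripts were compared as well, because a component's sum can hide opposite moves. Of 26232 transcripts with 1 TPM or more in at least 4 of the 8 libraries, 0 passed (0% called; smallest limma adjusted p = 0.143), and 881 (3.36%) had an unadjusted p under 0.05. The share of each transcript within its component was tested for 16099 transcripts in 5311 components, and again 0 passed (0% called; smallest limma adjusted p = 0.157), with 670 (4.16%) at an unadjusted p under 0.05. The conjugates did not overlap in the level of 2% of the tested transcripts and in the share of 2.04%. The same 4 transcripts, 2 in each direction, had the lowest p in both tests among those with a mean of 1 TPM or more. Each was at 1 TPM or more in every library of 1 conjugate and under 1 TPM in every library of the other. There were 14 such transcripts on the PCTR3 side and 14 on the RCTR3 side. They passed the filter through 1 group alone and so had to differ. Neither their number nor any p-value given below for them, passing or not, is evidence of a difference.

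comp143831_c0_seq50 had 2.37, 3.91, 1.89 and 2.41 TPM with PCTR3 and no more than 3.1e-10 TPM in each RCTR3 library. It did not pass (limma adjusted p = 0.143), except without the intensity trend (limma adjusted p = 0.0256). It was 1 of 15 transcripts and made up 1.06% ± 0.405 of its component with PCTR3 (SD, n = 4). The component itself stood at 253 ± 14 TPM with PCTR3 and 237 ± 9.34 TPM with RCTR3. In vehicle the transcript was at 0.99 and 1.16 TPM in replicates 1 and 3 and listed at 0 in replicates 2 and 4. Libraries of a single group thus differed in whether it was listed above 0.

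comp141033_c0_seq11 likewise had values near 0 and values above 1 TPM within the vehicle group. It had 3.53, 1.45, 3.16 and 4.38 TPM with PCTR3, at most 0.0265 TPM with RCTR3, and 0.00027, 2.79, 2.8e-07 and 1.72 TPM in vehicle. Its share was 5.46% ± 2.18 of a component whose total was 57.8 ± 2.54 TPM with PCTR3 and 57.1 ± 2.11 TPM with RCTR3 (SD, n = 4 each). The limma adjusted p was 0.171 for its level. Without PCTR3 replicate 2 it passed, at 0.0366 for its level and 0.0327 for its share.

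On the other side, comp139376_c2_seq10 had 0.0518, 0.233, 0.645 and 0.0167 TPM with PCTR3, against 3.44, 3.7, 2.27 and 2.65 TPM with RCTR3. It made up 1.17% ± 1.39 of its component with PCTR3 and 14.9% ± 3.05 with RCTR3 (SD, n = 4 each; limma adjusted p = 0.157 for the share). The component's total was 20 ± 1.02 TPM with PCTR3 and 20.2 ± 1.18 TPM with RCTR3, with an interval of the log2(TPM + 1) difference from -0.16 to 0.14. This transcript was present in the other groups too, at 1.17 to 3.25 TPM with MCTR3 and 1.76 to 4.92 TPM in vehicle, so the PCTR3 libraries were the low ones. With all 16 libraries in the fit its share passed (limma adjusted p = 0.0369).

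comp146427_c1_seq2 had 0.829 TPM in PCTR3 replicate 1 and was listed at 0 in the other PCTR3 libraries, against 4.71, 8.01, 3.32 and 2.33 TPM with RCTR3. Its share in the RCTR3 libraries was 15.6% ± 5.67 (SD, n = 4), and the limma adjusted p for the share was 0.157. Of the 4 vehicle libraries, replicates 1 and 3 were listed at 0 and replicates 2 and 4 had 0.451 and 2.25 TPM.

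**Figure D4:**
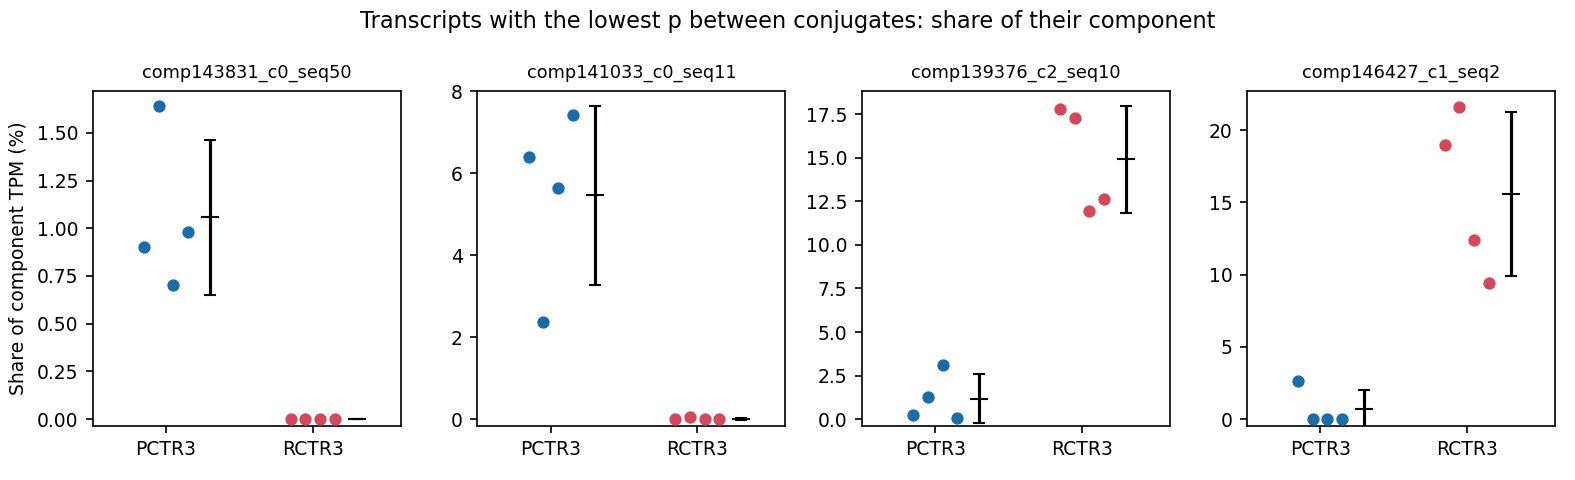
Share of the component's TPM held by the 4 transcripts with the lowest p, in percent (vertical axis), for the PCTR3 and RCTR3 libraries; points are libraries and bars are the mean ± SD of 4, and some bars reach below 0. The groups do not overlap in any panel, and the highest mean share is 15.6%, for comp146427_c1_seq2 with RCTR3.

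Against vehicle, each conjugate differed at many of the components that did not separate the conjugates. Fitted over all 16 libraries, 6195 components passed for PCTR3 against vehicle (39.8% called, with 3031 or 19.5% higher and 3164 or 20.3% lower) and 7050 for RCTR3 against vehicle (45.3% called, with 3429 or 22% higher and 3621 or 23.3% lower). The 2 comparisons share the 4 vehicle libraries, and the split depends on scaling: with every library brought to 1 common TPM sum it was 5060 higher and 1632 lower for PCTR3 and 5998 and 1771 for RCTR3. The PCTR3 and RCTR3 libraries also follow the vehicle libraries in the numbering, so treatment and position cannot be told apart here either. The filter took no account of vehicle, so components present in vehicle but under the filter with both conjugates were not tested. None of the components in either list passed the threshold in the direct comparison of the conjugates. The median absolute log2(TPM + 1) difference was 0.0572 for PCTR3 against RCTR3, 0.192 for PCTR3 against vehicle and 0.211 for RCTR3 against vehicle. For MCTR3 against vehicle, where 0 components passed (0% called), it was 0.0854. No test of the difference between these medians was made.

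The components furthest from vehicle in the mean of both conjugates were taken among the tested components above 0 in every library. They were chosen for that distance in these same libraries, so standing apart from vehicle is no separate result. The condition of being above 0 left out comp144741_c0, whose fall of the mean was larger than those given here (log2(TPM + 1) difference -2.10, limma adjusted p = 0.0079). comp144303_c2 had 35.3, 40.9, 29.1 and 26.7 TPM with PCTR3, 39.7, 30.7, 26.2 and 28.6 TPM with RCTR3, and 8.93, 6.29, 10.2 and 7.73 TPM in vehicle. The conjugate groups overlapped almost entirely and lay wholly above vehicle. The ratio of PCTR3 to RCTR3 was 1.05, with an interval of 0.84 to 1.32 (limma adjusted p = 0.999). comp136966_c1 had 5.95, 8.82, 5.75 and 5.28 TPM with PCTR3, 10.6, 7.32, 5.1 and 8.39 TPM with RCTR3, and 2.55, 0.954, 1.76 and 0.387 TPM in vehicle. Its ratio was 0.852 (interval 0.634 to 1.14; limma adjusted p = 0.999).

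Among those lower than vehicle, comp126079_c0 had 99.4, 68.7, 119.6 and 92.1 TPM with PCTR3, 77.3, 77.1, 106.7 and 102.4 TPM with RCTR3, and 205.2, 213.7, 197.4 and 255.1 TPM in vehicle. The PCTR3 to RCTR3 ratio was 1.04 (interval 0.809 to 1.33; limma adjusted p = 0.999). comp145514_c0 had 81.1, 57.6, 90.4 and 54.8 TPM with PCTR3, 54.7, 28.7, 66.2 and 75.2 TPM with RCTR3, and 211.8, 132.7, 104.3 and 146.2 TPM in vehicle. Its ratio of 1.3 had the widest interval of the 4, from 0.869 to 1.96 (limma adjusted p = 0.999).

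**Figure D5:**
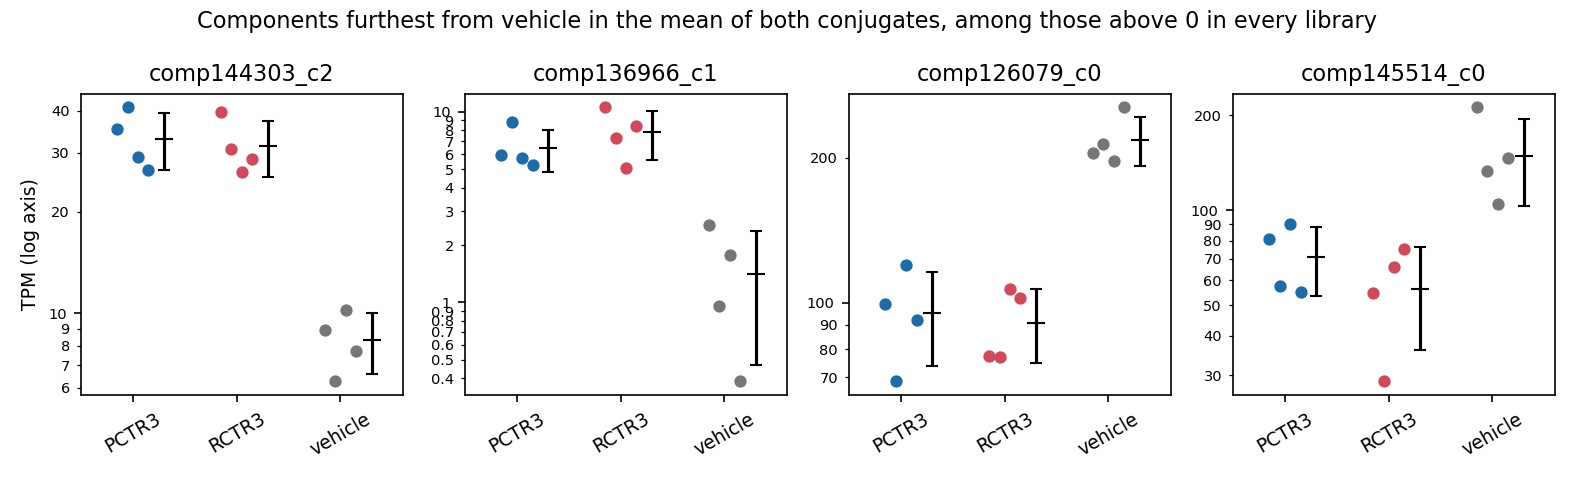
TPM (vertical log axis) of the components with the largest rises (left pair) and falls (right pair) against vehicle in the mean of PCTR3 and RCTR3, among components above 0 in every library; points are libraries and bars are the mean ± SD of 4. PCTR3 and RCTR3 points overlap in every panel and stand apart from vehicle, as for comp144303_c2 at 26.2 to 40.9 TPM with a conjugate and 6.29 to 10.2 TPM in vehicle. The distance from vehicle follows from how the components were chosen.

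Across whole response lists the conjugates were also close. For the mean of both conjugates against vehicle, 49.6% of components were called, 3818 higher (24.5%) and 3903 lower (25.1%). Among the 3818, the median PCTR3 minus RCTR3 difference was -0.03 and 34.1% were higher with PCTR3. Among the 3903, the median was 0.0369 and 70.5% were higher with PCTR3, beside 0.0027 and 51.5% over all tested components. In both lists RCTR3 lay slightly further from vehicle, by less than the SD of the library medians. For the 3818 that SD was 0.0881 with PCTR3 and 0.0564 with RCTR3. For the 3903 it was 0.0774 with PCTR3 and 0.0386 with RCTR3, the latter close to the median difference. The SD describes single libraries and is not the error of a difference between group means. The median of the 3818 stood above the vehicle mean by 0.376, 0.474, 0.266 and 0.327 in the PCTR3 libraries and by 0.469, 0.405, 0.342 and 0.362 in the RCTR3 libraries. These ranges overlap, PCTR3 replicate 3 being the nearest to vehicle and PCTR3 replicate 2 the furthest. For the 3903 the medians were -0.295, -0.402, -0.214 and -0.293 with PCTR3 and -0.381, -0.337, -0.288 and -0.324 with RCTR3. Without PCTR3 replicate 3 the median differences were 0.0028 for the 3818, a change of sign, and 0.0045 for the 3903. Without RCTR3 replicate 1 they were -0.0051 and 0.0185, without PCTR3 replicate 2 -0.0666 and 0.072, and with a common TPM sum -0.0586 and 0.0065.

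The most abundant components were nearly the same with each conjugate. Of the 100 highest by group mean, 99 were shared, 99% of each list. The highest, comp141548_c0, had 14052, 12101, 15563 and 16290 TPM with PCTR3, 12519, 13937, 16010 and 15201 TPM with RCTR3, and 17296 to 19352 TPM in vehicle. The conjugate ranges overlapped, and the ratio of PCTR3 to RCTR3 was 1 with an interval of 0.829 to 1.22. The next, comp132328_c0, had 15089, 14515, 15197 and 13320 TPM with PCTR3 and 13893, 14078, 13787 and 14303 TPM with RCTR3, a ratio of 1.04 (interval 0.9 to 1.19). Among the 100 most abundant over the 8 libraries, 80 were higher with PCTR3, with differences from -0.07 to 0.41 and none at an unadjusted p under 0.05. With a common TPM sum 57 were higher, and after median centring 78.

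On the median, libraries were no nearer to their own group than to the other conjugate. The median absolute log2(TPM + 1) difference between 2 libraries, over components, ran from 0.117 to 0.19 in the 6 pairs within PCTR3 and from 0.0856 to 0.153 in the 6 pairs within RCTR3. In the 16 pairs of a PCTR3 with an RCTR3 library it ran from 0.0952 to 0.176, with a median of 0.121, against medians of 0.137 within each group. Pairs with a vehicle library lay at a median of 0.204 for PCTR3 and 0.234 for RCTR3. The leading principal component of the 8 libraries held 30.9% of the variance and did not divide the conjugates, with scores of -4.84, 18.9, -16.4 and -2.04 for PCTR3 and 13.7, -11, -3.14 and 4.91 for RCTR3.

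None of 6 library measures differed between the conjugates in two-sided exact permutation tests. An exact permutation test of 4 libraries against 4 cannot go below p = 0.0286. The TPM sums were 973.9 ± 15.8 kTPM with PCTR3 and 952.6 ± 18 kTPM with RCTR3 (SD, n = 4 each; exact p = 0.171, Benjamini-Hochberg 0.789 over the 6). The 100 most abundant components held 29.2% ± 0.46 of all TPM with PCTR3 and 28.8% ± 0.446 with RCTR3 (SD, n = 4 each; exact p = 0.286). Components at 1 TPM or more numbered 15482 ± 58 and 15509 ± 46.6 (exact p = 0.543), and the share of component values at 0 was 1.09% ± 0.132 and 1.15% ± 0.0671 (exact p = 0.543). A library's median deviation from the rest of its group was 0.113 ± 0.0262 with PCTR3 and 0.106 ± 0.0202 with RCTR3 (exact p = 0.657), and the principal component scores gave an exact p of 0.8. Per component, the SD over the 4 libraries had a median of 0.13 with PCTR3 and 0.119 with RCTR3 and was larger with PCTR3 for 55.2% of components. This order rested on single libraries: the share was 44.4% without PCTR3 replicate 2 and 66% without RCTR3 replicate 2.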

How the data were processed

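RNA was measured in 16 libraries, 4 per group. Per the labels, reads were assigned to *D. japonica* transcript sequences, and the authors deposited log2 TPM per transcript; kallisto and sleuth appear in the submitters' processing notes. The transcript set, versions and filters are not stated. A TPM of 0 is held as a floor of -34.9 and was set back to 0. Read depth is unknown. Columns were matched to groups by sample title.

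TPM was summed over the transcripts of each component. Components with 1 TPM or more in 4 or more of the 8 PCTR3 and RCTR3 libraries were tested with limma 3.58.1 in R 4.3.3 on log2(TPM + 1), with an intensity trend, two-sided, Benjamini-Hochberg over all tested features, threshold 0.05. The direct comparison used those 8 libraries, and 1 pair of compounds was compared. Comparisons with vehicle used all 16, on the components kept by the filter on the PCTR3 and RCTR3 libraries. Transcripts and their log2 ratio to the rest of their component were tested likewise. The code was tested on simulated data. Of 120 pairs of libraries, 0 held identical values.

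Up to 2 features per direction are named: the largest changes past the threshold or, with none, the lowest p among those with a mean of 1 TPM or more; in addition the 2 largest rises and falls of the mean of PCTR3 and RCTR3 against vehicle among components above 0 in every library, and the 2 most abundant components. Members, lists and tests were chosen with earlier results of these data known. Deviations of same-numbered PCTR3 and RCTR3 libraries correlated at -0.25 to 0.229, which does not settle whether they were paired. No pairing was used in the main fit. Alternatives covered pseudocount, filter, scaling, fit, block and left-out libraries.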

Additional observations from a re-analysis of the deposited data

Results flagged for a closer look

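In 44 groups of 4 libraries examined for a library far from the rest, 4 were found, and chance gives about 1 in 20. The TPM sum of RCTR3 replicate 2 was 926.1 kTPM, against 959.3 to 965.7 kTPM in the other RCTR3 libraries. PCTR3 replicate 4 had 15396 components at 1 TPM or more, against 15504 to 15521 in the other PCTR3 libraries. comp141033_c0_seq11 had 0.0265 TPM in RCTR3 replicate 2, against at most 0.0019 TPM in the other RCTR3 libraries. comp146427_c1_seq2 had 0.829 TPM in PCTR3 replicate 1 and was listed at 0 in the other PCTR3 libraries.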

How the results depend on the processing

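No component passed the threshold between PCTR3 and RCTR3 under any of 20 alternatives, and the lowest limma adjusted p was 0.736. For transcripts 15 of 19 alternatives and for shares 9 of 13 gave no call. Transcript calls numbered 1 without the filter, 2 without the intensity trend and 0 to 2 with 1 library left out. Share calls numbered 2 with a pseudocount of 0.1, 2 with all 16 libraries in the fit and 0 to 2 with 1 library left out. The cause was not tested. Some transcripts called in these fell outside the naming rule and were singled out after their values were seen. comp133487_c0_seq1 had at most 0.00086 TPM with PCTR3 and 1.09 to 1.39 TPM with RCTR3. comp143050_c0_seq9 (share, 16 libraries) had 2.09 to 4.66 TPM with PCTR3 and at most 0.556 TPM with RCTR3. These 2 also reached 1 TPM in 1 group alone and so had to differ under the filter. Their calls made with the filter are no evidence of a difference. The call made without the filter was comp133487_c0_seq1 (limma adjusted p = 0.0069 for its level). That call did not depend on the filter, and the transcript did not pass in the main fit. Also outside the rule were comp142249_c0_seq18 and comp145434_c3_seq5. The last 2 were called only without RCTR3 replicate 2, where they had 5.69 and 6.42 TPM, against at most 0.404 TPM in the other RCTR3 libraries. In the libraries then left they reached 1 TPM with PCTR3 alone, so these calls are no evidence of a difference either. The replicate number as a block (replicate block) gave 0 calls for components, transcripts and shares, 6111 against vehicle for PCTR3 and 6930 for RCTR3. Same-numbered PCTR3 and RCTR3 deviations correlated at 0.0705, -0.25, 0.229 and 0.162. The share of component intervals inside 1.5-fold was 87.9% and 92.1% with pseudocounts of 0.1 and 0.5, 94.5% without the filter, 97.6% with a filter of 5 TPM, 95.6% with all 16 libraries and 92.9% to 94% with 1 library left out. Inside 2-fold it was 98%, 99.2% and 99.9% with those pseudocounts and the 5 TPM filter, and 99.5% to 99.6% with 1 library left out. Counts against vehicle stayed between 4707 and 6692 for PCTR3 and between 5842 and 7769 for RCTR3. The sign of differences that never passed turned for comp141548_c0 (-0.0264 after rescaling, -0.0603 to 0.0894 with 1 library left out), comp132328_c0 (-0.0277 under quantile normalization), comp144303_c2 (-0.035 to 0.188) and comp126079_c0 (-0.0677 to 0.196), and for 3 library measures with 1 library left out: components at 1 TPM or more (-46.4 to 2.25), median deviation (-0.0111 to 0.0255) and principal component score (-8.25 to 4.81). TPM holds no depth, so no limit from counting could be set.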
